A study of Homo sapiens with 8 samples.

Results

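The miR-30 family guide arms are the 5 human miRNAs hsa-miR-30a-5p, hsa-miR-30b-5p, hsa-miR-30c-5p, hsa-miR-30d-5p and hsa-miR-30e-5p (written without the prefix from here on), chosen by name from the 1887 human miRNAs of an Agilent miRNA array. The RNA came from PC-3, a hormone-insensitive human prostate cancer cell line, 24 h after treatment. The 4 groups were DMSO, which is the solvent of both drugs, 60 µM luteolin, 60 µM gefitinib, and luteolin plus gefitinib at 60 µM each. Luteolin is a flavonoid of plants, whereas gefitinib blocks the kinase of the epidermal growth factor receptor. Each group had 2 arrays that the labels call biological replicates, and all cells were of 1 line. All 5 members were detected on all 8 arrays, and 0 of 5 were called changed in any of 6 comparisons, in which between 1.88% and 12.1% of all miRNAs were called, so that 0 of 5 is near the background. Under the scaling between arrays used here, their 95% confidence intervals against DMSO stayed within 2-fold. This bound depends on the scaling. With gefitinib, the log2 change of miR-30b-5p was 0.14 here but 0.60 with scaling to spike-in probes. miR-30b-5p and miR-30c-5p differed more between the replicates of DMSO and of luteolin than between any of their group means.

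A miRNA is cut as a short hairpin from a longer transcript, and one arm of the hairpin, the guide arm, is usually kept by an Argonaute protein while the other arm is mostly lost. The kept arm pairs with messenger RNAs mainly through its seed, the bases near its 5′ end, so miRNAs with the same seed can act on overlapping sets of targets. The miR-30 family is widely expressed in epithelial cells and is known as an opponent of epithelial-mesenchymal transition, in part through the transcription factor SNAI1. In this family the 5p arm is the guide arm.

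Mature sequences were taken from RefSeq (GRCh38.p14), in which 3 of the 5 members were matched, namely miR-30a-5p, miR-30c-5p and miR-30e-5p. They are shown because the shared seed, bases 2 to 8 and given in capitals, is what makes these miRNAs a family, and because the bases after it are all that an array probe can use to tell them apart.
miR-30a-5p: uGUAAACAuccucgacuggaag
miR-30e-5p: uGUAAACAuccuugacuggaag
miR-30c-5p: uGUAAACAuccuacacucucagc
miR-30a-5p and miR-30e-5p were the same at 21 of 22 bases and differed by C13U, counted from 1 at the 5′ end with the base of miR-30a-5p first. miR-30c-5p was the same as miR-30a-5p over the first 12 bases and differed from it at 5 of the first 22. miR-30a-5p lies at chr6:71403595-71403616 on the minus strand. miR-30e-5p lies at chr1:40754371-40754392 on the plus strand, inside NFYC, the gene of a subunit of the transcription factor NF-Y. miR-30c-5p is made from 2 genes, MIR30C1 at chr1:40757300-40757322 on the plus strand, also inside NFYC, and MIR30C2 at chr6:71377003-71377025 on the minus strand. Of the 2370 mature miRNA names in the table, 3 had this seed, and all 3 were members. How much of the signal of miR-30a-5p came from miR-30e-5p, or the reverse, was not tested, and the signal of miR-30c-5p does not tell its genes apart.

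The values given are the total signal of a miRNA in arbitrary fluorescence units, scaled so that the 75th percentile of the 365 miRNAs detected on all 8 arrays was the same on each. Before scaling this percentile lay between 60.5 and 92.7, and the arrays detected between 395 and 481 miRNAs. All spots of the members were well above background on all arrays, and 0 of the miRNA spots were saturated. Of 6 miRNAs listed as markers of prostate carcinoma epithelium, 4 were detected on all 8 arrays, whereas miR-200c-3p and miR-141-3p were detected on no array. Of 12 markers of blood, neuron, liver and muscle cells, 11 were detected on no array and 0 on all 8. The summed signal of the epithelial markers on the 2 arrays of a group was 4299.7 and 5651 in DMSO, 4469 and 5678 with luteolin, 4689.5 and 4832 with gefitinib, and 4554 and 4956 with both drugs, lower value first. miR-21-5p alone gave between 3401 and 4731 of this sum on the 8 arrays. Of the other markers, miR-221-3p was at 324 and 349.6 with gefitinib against 442 and 504 in DMSO, and miR-222-3p at 264 and 280.1 against 309 and 314. Both were lower with gefitinib without overlap, as were 38.1% of the 365 miRNAs. miR-21-5p, at 3922 and 4104 with gefitinib, lay inside the 3401 to 4695 of DMSO. miR-200b-3p, at 124 and 153 with gefitinib, lay on both sides of the 143 and 144 of DMSO. The part of these markers in the values of the members was not tested. In these bulk samples, a smaller share of cells that held a miRNA and less of it per cell cannot be told apart.

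miR-30b-5p varied most among the members. Its scaled signal was 161 and 244 on replicates 1 and 2 of DMSO, and 166 and 263 on those of luteolin. With gefitinib it was 213 and 224, and with luteolin plus gefitinib it was 191 and 205. The gefitinib and combination arrays all lay between the lowest and the highest DMSO array, and so did luteolin replicate 1, whereas luteolin replicate 2 lay above every other array. Replicates differed by 1.52-fold in DMSO and by 1.58-fold with luteolin, against 1.05-fold with gefitinib and 1.08-fold with both drugs. The error that the scanner software assigned to this miRNA was between 6.59% and 6.72% of its signal. The miR-30b-5p level against DMSO was 1.06-fold with luteolin (95% confidence interval 0.638 to 1.75, limma adjusted p = 1), 1.10-fold with gefitinib (0.667 to 1.83, adjusted p = 0.831) and 1.00-fold with both drugs (0.604 to 1.66, adjusted p = 1). These differences were smaller than those between the DMSO replicates.

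miR-30c-5p showed the same arrangement at smaller size. It gave 31.9 and 42.9 on the DMSO arrays and 33.3 and 47.7 on the luteolin arrays. The values were 40.4 and 38.4 with gefitinib and 39.0 and 38.4 with both drugs, all between those of the DMSO arrays. Its replicates were 1.35-fold apart in DMSO and 1.43-fold apart with luteolin, but only 1.05-fold and 1.02-fold apart with gefitinib and with both drugs. The level of miR-30c-5p relative to DMSO was 1.08-fold with luteolin (0.723 to 1.61, limma adjusted p = 0.981), 1.07-fold with gefitinib (0.715 to 1.59, adjusted p = 0.868) and 1.05-fold with both drugs (0.702 to 1.56, adjusted p = 0.908).

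miR-30d-5p was the member with the widest spread of group means, which covered 1.24-fold. The DMSO arrays gave 111 and 118, and the luteolin arrays gave 129 and 132, both above DMSO. With gefitinib the values were 102 and 110, both below DMSO, replicate 2 by less than its scanner error from the nearer DMSO array, and with both drugs they were 118 and 138, both above the DMSO arrays, replicate 1 by less than its scanner error. The fitted differences from DMSO were 1.14-fold for luteolin (log2 fold change 0.19, SE 0.14, limma adjusted p = 0.838), 0.924-fold for gefitinib (-0.11, SE 0.14, adjusted p = 0.711) and 1.12-fold for luteolin plus gefitinib (0.16, SE 0.14, adjusted p = 0.537). The group means of miR-30d-5p that stood farthest apart were those of luteolin, 131 ± 2.20 (SD, n = 2), and gefitinib, 106 ± 5.54. With no scaling between arrays the gefitinib value turned to 0.25, with small-RNA control probes to 0.18, with spike-in probes to 0.34 and with quantile normalization to 0.01 (log2), and it was called under none of these.

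miR-30a-5p was the most even between replicates over the 4 groups together, with an SD within groups of 0.046 (log2). miR-30d-5p was more even with luteolin (1.02-fold against 1.08-fold) and miR-30c-5p with both drugs (1.02-fold against 1.04-fold). Its scaled signal was 21.9 and 22.5 in DMSO, 22.4 and 20.8 with luteolin, 19.9 and 20.1 with gefitinib, and 19.9 and 19.1 with both drugs. The 4 arrays with gefitinib, alone or with luteolin, were the 4 lowest of the 8. miR-30a-5p was at 0.970-fold of DMSO with luteolin (log2 fold change -0.04, SE 0.12, limma adjusted p = 0.995), 0.900-fold with gefitinib (-0.15, SE 0.12, adjusted p = 0.554) and 0.877-fold with both drugs (-0.19, SE 0.12, adjusted p = 0.414). The last was the smallest adjusted p of the 15 comparisons of members with DMSO. The gefitinib values before scaling were 23.1 and 23.7, above the 20.6 and 19.8 of DMSO, and the log2 change was 0.21 with no scaling, 0.14 with scaling to small-RNA control probes and 0.31 with scaling to spike-in probes.

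The scaled signal of miR-30e-5p was at 53.0 and 58.3 in DMSO, 51.5 and 59.3 with luteolin, 54.2 and 55.4 with gefitinib, and 52.3 and 49.5 with both drugs. Both combination arrays were below both DMSO arrays, each by less than its scanner error from the nearer DMSO array, while the other treatments overlapped with DMSO. Against DMSO, miR-30e-5p was at 0.993-fold with luteolin (95% confidence interval 0.782 to 1.26, limma adjusted p = 1), 0.985-fold with gefitinib (0.775 to 1.25, adjusted p = 0.952) and 0.915-fold with both drugs (0.720 to 1.16, adjusted p = 0.631). With gefitinib its log2 change turned from -0.02 to 0.35 with no scaling, 0.27 with small-RNA control probes and 0.44 with spike-in probes.

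**Figure D1:**
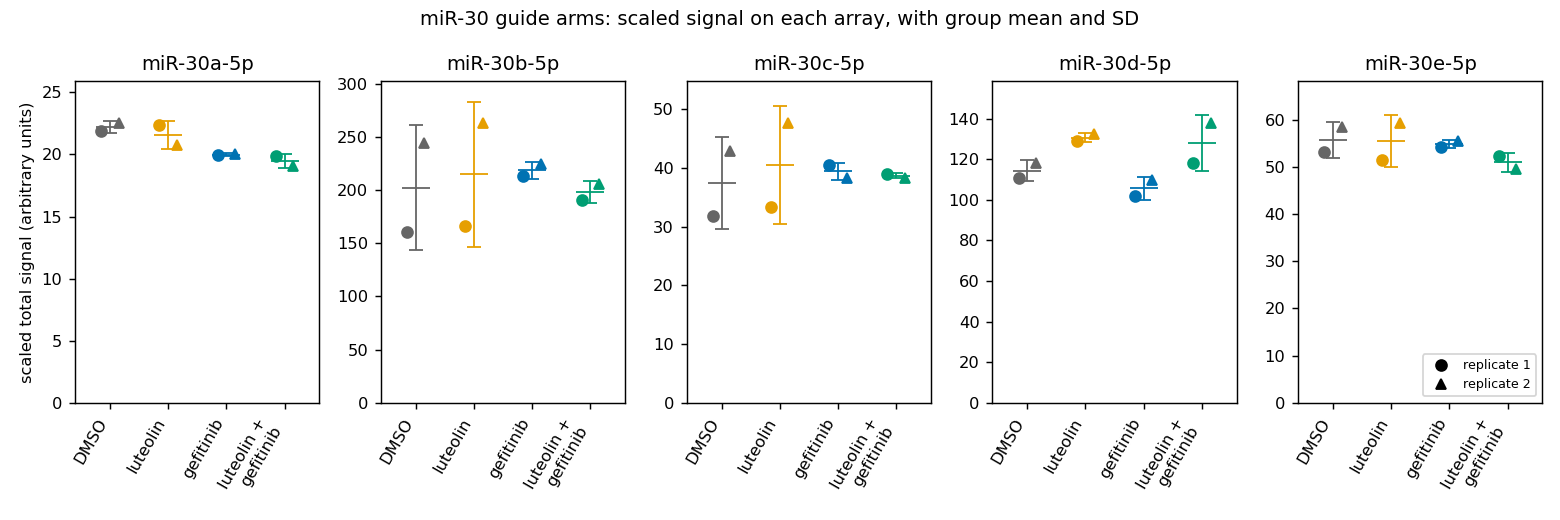
Scaled total signal (arbitrary units, axis from 0) of each miR-30 guide arm on the 8 arrays, with circles for replicate 1, triangles for replicate 2, and a bar with whiskers for the group mean and SD (n = 2). The replicates of DMSO and of luteolin stand apart for miR-30b-5p, by 1.52-fold and 1.58-fold, and for miR-30c-5p, by 1.35-fold and 1.43-fold, while miR-30a-5p stays between 19.1 and 22.5 on all arrays.

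To examine whether either drug, or both together, changed the guide arms, 480 miRNAs, those that the 2 arrays of some group both detected, were fitted together. A miRNA was called at a limma adjusted p under 0.05. With luteolin, 0 of 5 members were called, where 2.08% of all miRNAs tested were. With gefitinib, 0 of 5 were called against 12.1% of all miRNAs, and with luteolin plus gefitinib 0 of 5 were called, also against 12.1%. At an unadjusted limma p under 0.05 the count of members was 0 in each comparison as well, and the corresponding shares of all miRNAs were 8.54%, 23.8% and 25.8%. The lowest unadjusted limma p of a member against DMSO was 0.174. The gefitinib replicates differed by between 1.01-fold and 1.08-fold for the members, within or near the error of the scanner, and with them counted as 1 sample the count of members called was 0 as well. The methods' t-test of the study found 0 members past its p and 2-fold thresholds in any of the 3 comparisons. By its unadjusted p alone it found 0 members with luteolin, and 1, miR-30a-5p, both with gefitinib and with the combination, where 5.56%, 24.7% and 18.3% of all miRNAs passed, and 0 after Benjamini-Hochberg adjustment.

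The median log2 fold change of the 5 members was 0.08 with luteolin, -0.02 with gefitinib and -9.27e-05 with both drugs. The corresponding medians of the 365 miRNAs detected on all arrays were -0.09, -0.11 and -0.13. Of the members, 3 were above 0 with luteolin, 2 with gefitinib and 2 with both drugs. These 3 comparisons share the DMSO arrays. The choice of scaling moved the median of all 365 miRNAs by up to 0.46 (log2), which is more than any of the 15 fitted changes of the members. In the gefitinib comparison the median of the members was 0.35 with no scaling and 0.44 with spike-in scaling, beside 0.25 and 0.34 for all 365 miRNAs. Each of the 4 other scalings moved the median of the 365 miRNAs upward in all 3 comparisons with DMSO. The 7 member changes above 0 stayed above 0 under all 4, and the 8 below 0 turned under at least 1, which follows from this common shift and does not set single members apart.

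Counts of arrays that did not overlap gave the same picture. With luteolin, both arrays lay above both DMSO arrays for 1 member, miR-30d-5p, and for 11% of the 365 miRNAs. With gefitinib, both arrays lay below both DMSO arrays for 2 members, miR-30a-5p and miR-30d-5p, against 38.1% of all. With both drugs, miR-30a-5p and miR-30e-5p lay below DMSO, against 31.8% of all, and miR-30d-5p lay above, against 21.4%. The intervals of the comparisons with DMSO ran from 0.604-fold to 1.83-fold for miR-30b-5p, and were narrower for the others, from 0.702-fold to 1.61-fold for miR-30c-5p, 0.726-fold to 1.46-fold for miR-30d-5p, 0.720-fold to 1.26-fold for miR-30e-5p and 0.710-fold to 1.20-fold for miR-30a-5p.

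**Figure D2:**
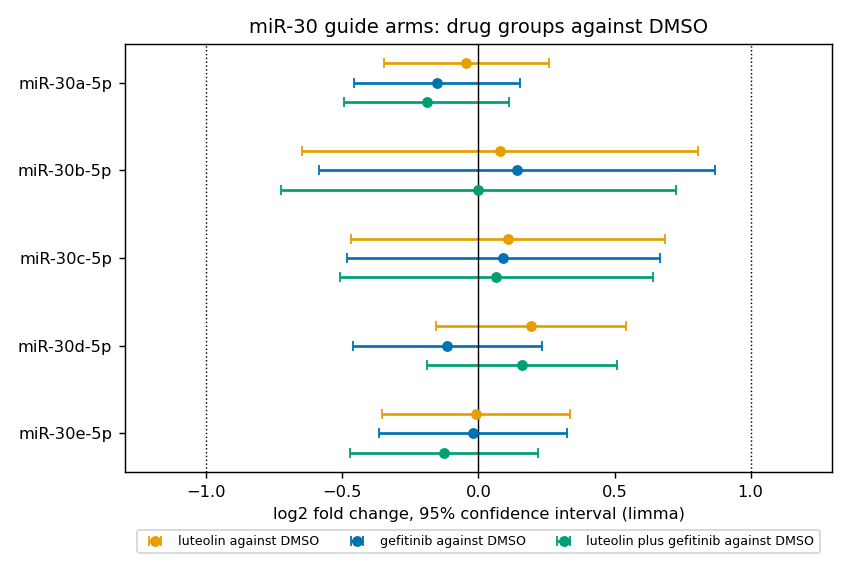
log2 fold change of each miR-30 guide arm in the 3 drug groups against DMSO, with points for the limma estimate, bars for its 95% confidence interval and dotted lines at a 2-fold change. Under the scaling used here, all 15 intervals include 0 and lie between the dotted lines. Those of miR-30b-5p, from 0.604-fold to 1.83-fold, are the widest.

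The combination was next compared with each drug alone. Against luteolin, 0 of 5 members were called where 1.88% of all miRNAs were, and all 5 estimates were below 0, between -0.15 and -0.03, beside a median of -0.04 over the 365 miRNAs. The shared sign depended on the scaling. With scaling to small-RNA control probes the median of the members was 0.015 and that of the 365 miRNAs 0.052. Both combination arrays were below both luteolin arrays for 1 member, miR-30a-5p, with the nearest arrays closer than their scanner error, and for 18.1% of the 365. Against gefitinib, 0 of 5 were called where 4.58% of all miRNAs were. In that comparison miR-30d-5p had the largest fitted difference of the family, 1.21-fold (log2 fold change 0.27, SE 0.14, limma adjusted p = 0.548), with both combination arrays above both gefitinib arrays, as for 22.2% of the 365 miRNAs. This depended on the scaling. Before scaling miR-30d-5p was at 131 and 107 with both drugs and at 118 and 130 with gefitinib, which overlap. With no scaling the median of the 365 miRNAs moved by -0.34 (log2) in this comparison. The other 4 members lay between -0.14 and -0.02, and 3 of them, miR-30a-5p, miR-30b-5p and miR-30e-5p, had both combination arrays below both gefitinib arrays, as had 29% of the 365. For each of these 3 the nearest arrays of the groups were closer than their scanner error. For the interaction, which takes both single-drug changes (log2) away from the change with the combination, 0 of 5 members were called where 3.33% of all miRNAs were. The interaction estimates ran from -0.22 for miR-30b-5p (SE 0.41) to 0.08 for miR-30d-5p (SE 0.20), and the lowest adjusted p was 0.986.

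The summed signal of the 5 guide arms was 378 and 486 in DMSO, 402 and 523 with luteolin, 429 and 447 with gefitinib, and 420 and 450 with both drugs. The lowest and the second highest sums were thus both from DMSO-treated cells. The mean sum was 432 ± 76.1 (SD, n = 2) for DMSO and 463 ± 85.1 for luteolin, against 438 ± 12.9 for gefitinib and 435 ± 21.2 for the combination. The family made up between 0.159% and 0.233% of the summed signal of all miRNAs detected on an array. That share was 0.159% and 0.184% in DMSO, 0.176% and 0.204% with luteolin, 0.224% and 0.233% with gefitinib, and 0.207% and 0.183% with both drugs. Both gefitinib arrays had the highest shares, while the scaled sum with gefitinib lay inside the range of DMSO. Before scaling the sum was 498 and 530 with gefitinib, above the 355 and 428 of DMSO, so that the overlap depended on the scaling.

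Shares within the family do not change when an array is scaled by 1 factor. They do change with a summary that averages log2 spot signals after normexp, a background correction with an offset of 50, and then uses quantile normalization. By this the mean share of miR-30a-5p in DMSO was 10.2% in place of 5.22%. The part of the offset in this was not tested. The shares given here are of fluorescence, which also depends on each probe, and so are compared only for 1 member between arrays. miR-30b-5p held 42.5% and 50.2% of the family signal in DMSO, 41.3% and 50.3% with luteolin, 49.6% and 50.1% with gefitinib, and 45.4% and 45.6% with both drugs. The share of miR-30d-5p was 29.3% and 24.3% in DMSO, 32.1% and 25.3% with luteolin, 23.7% and 24.5% with gefitinib, and 28.1% and 30.6% with both drugs. Replicate 1 of DMSO and of luteolin thus had less miR-30b-5p and more miR-30d-5p in its family signal than replicate 2. Between gefitinib and the combination the shares of both members did not overlap, with miR-30b-5p lower and miR-30d-5p higher in the combination. The other shares ranged over the 8 arrays from 3.97% to 5.79% for miR-30a-5p, from 8.28% to 9.42% for miR-30c-5p and from 11.0% to 14.0% for miR-30e-5p. The shares are given as a description, with no test.

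**Figure D3:**
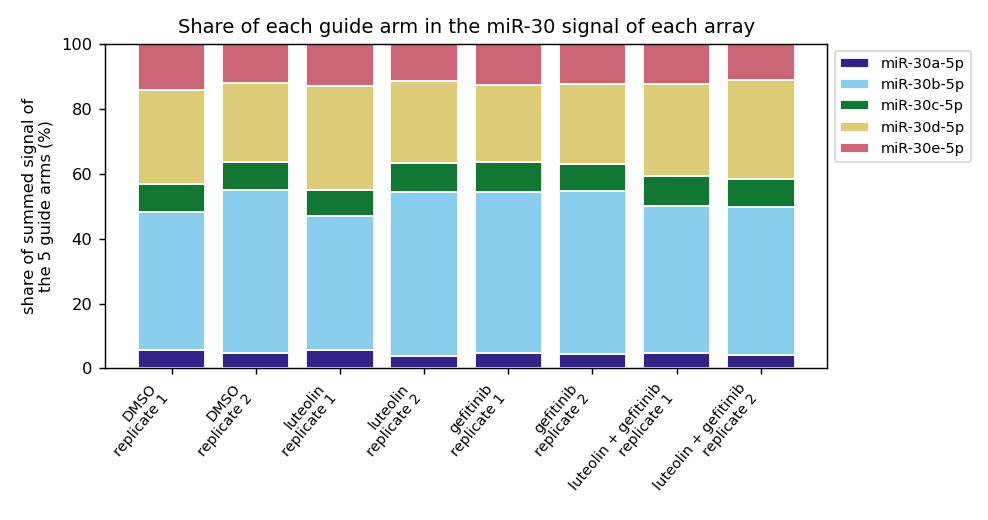
Share (%) of each miR-30 guide arm in the summed signal of the 5 guide arms on each of the 8 arrays. The segment of miR-30b-5p runs from 41.3% on luteolin replicate 1 to 50.3% on luteolin replicate 2, and that of miR-30d-5p from 23.7% on gefitinib replicate 1 to 32.1% on luteolin replicate 1.

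Over the 8 arrays the members did not rise and fall as 1 unit. miR-30b-5p and miR-30c-5p followed each other most closely, with a Pearson r of 0.95 for log2 scaled signal, and the ratio of their signals stayed between 4.88 and 5.84. miR-30e-5p had an r of 0.74 with miR-30b-5p and 0.69 with miR-30c-5p. miR-30d-5p had an r between -0.19 and 0.17 with the other 4 members. miR-30a-5p and miR-30e-5p, the pair that differ by 1 base, had an r of 0.36, and the ratio of miR-30a-5p to miR-30e-5p stayed between 0.350 and 0.434. These values describe 8 arrays that share 4 treatments and 1 scaling. Both miR-30b-5p and miR-30c-5p were lowest on replicate 1 and highest on replicate 2 of DMSO and of luteolin. Gaps of this size were not particular to them. In DMSO, 16.4% of the 365 miRNAs differed more between replicates than miR-30b-5p did and 31.5% more than miR-30c-5p, and with luteolin 25.2% and 32.6% did. The median difference over the 365 miRNAs was 1.25-fold for DMSO, 1.31-fold for luteolin, 1.07-fold for gefitinib and 1.14-fold for the combination. By contrast, miR-30a-5p, miR-30d-5p and miR-30e-5p differed by less than the median in DMSO and with luteolin.

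**Figure D4:**
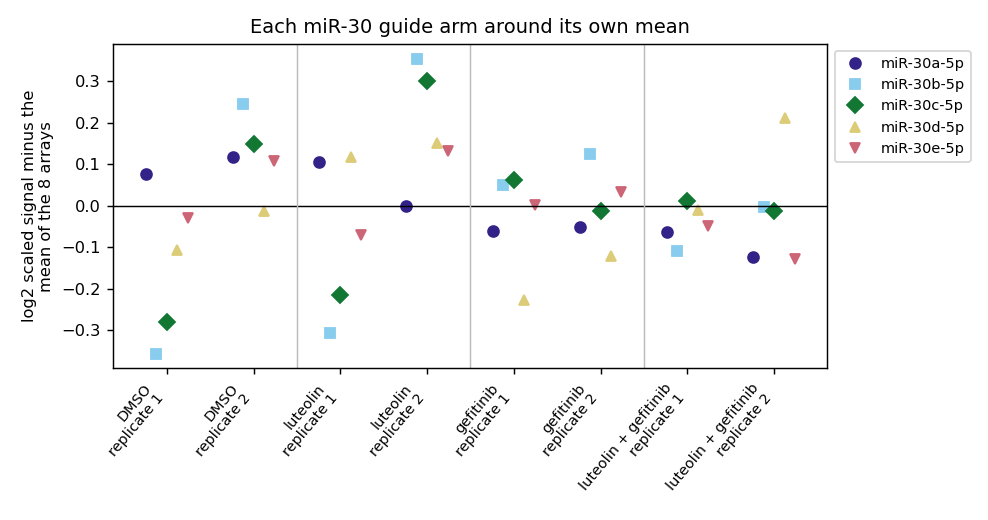
log2 scaled signal of each miR-30 guide arm minus its own mean over the 8 arrays, in order of treatment. miR-30b-5p and miR-30c-5p (r = 0.95) are low on replicate 1 and high on replicate 2 of DMSO and of luteolin, whereas miR-30d-5p is lowest on the gefitinib arrays and highest on replicate 2 of luteolin plus gefitinib.

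Among the other 360 miRNAs detected on all arrays, those most like the mean of the members across the 8 arrays were miR-100-5p (Pearson r = 0.99), miR-107 (0.98), miR-103a-3p (0.97), miR-125b-5p (0.97) and miR-21-5p (0.96). This mean follows mostly the members that vary most. The SD within groups (log2) was 0.32 for miR-30b-5p and 0.24 for miR-30c-5p, against 0.046 for miR-30a-5p, 0.094 for miR-30d-5p and 0.092 for miR-30e-5p. By single members, miR-30b-5p was nearest to let-7g-5p (0.98), with miR-30c-5p at rank 9 of 364, and miR-30c-5p was nearest to miR-26b-5p (0.98). miR-30d-5p was nearest to miR-1268a (0.88), and the member nearest to it, miR-30c-5p (0.17), ranked 141 of 364.

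The probes of the members were next compared. miR-30b-5p was read by 3 probes and each of the other members by 2, 11 in all, and all of them entered the total on all arrays. For 12 of the 15 comparisons of members with DMSO, every probe of the member lay on the same side of 0. Probes of 1 member differed by at most 0.19 in log2 fold change, for miR-30b-5p with gefitinib. For miR-30d-5p the probes gave 0.18 and 0.21 with luteolin, and 0.15 and 0.16 with both drugs.

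The other arms of the miR-30 hairpins were listed as miR-30a-3p, miR-30b-3p, miR-30c-1-3p, miR-30c-2-3p, miR-30d-3p and miR-30e-3p. miR-30a-3p and miR-30c-2-3p were detected on no array, and 4 of the 6 arms were tested. miR-30b-3p was detected at 1.71 and 1.66 on the DMSO arrays and on replicate 1 of luteolin and of gefitinib, and on neither array with both drugs. miR-30d-3p was at 0.802 and 0.923 in DMSO and was likewise detected on neither array with both drugs, and the same held for miR-30c-1-3p, which was detected on 1 of the 2 DMSO arrays. The arrays of both drugs detected 447 and 395 miRNAs, against 475 and 430 in DMSO. With both drugs against DMSO 1 of the 4 tested arms was called lower, miR-30e-3p, where 6.04% of all miRNAs were called lower. miR-30b-3p (limma adjusted p = 0.0820) and miR-30d-3p (adjusted p = 0.0688) were not called. Both combination arrays of each were set to the floor, and so were all luteolin and gefitinib arrays of miR-30d-3p. These p-values thus rest on substituted values without spread and do not measure a change. In DMSO, at most 10% of the spots of these arms were well above background. With all probes summed, detected or not, 3 of the 4 were called lower, which adds miR-30b-3p and miR-30d-3p, where 10.6% of all miRNAs were called lower on that scale. The 2 added arms were tested only because both DMSO arrays detected them. A lower value with the drugs was thus favoured by the filter, and nothing is concluded from these added calls. No arm of the list was called with luteolin or with gefitinib alone against DMSO, where 2.08% and 12.1% of all miRNAs were called.

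miR-30e-3p was the only other arm of the family detected on all 8 arrays, and it allowed both arms of 1 hairpin to be compared within each array. Its sequence is shown beside that of miR-30a-3p, with bases 2 to 8 in capitals, because the pair again differ by 1 base (A18G, miR-30e-3p first) while miR-30a-3p was detected on no array.
miR-30e-3p: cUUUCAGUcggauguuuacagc
miR-30a-3p: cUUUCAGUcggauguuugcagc
miR-30e-3p lies at chr1:40754413-40754434 on the plus strand (GRCh38.p14) and miR-30a-3p at chr6:71403554-71403575 on the minus strand. The scaled total of miR-30e-3p was 5.30 and 6.52 in DMSO, 3.90 and 4.91 with luteolin, 4.90 and 4.88 with gefitinib, and 2.32 and 2.35 with both drugs. By these totals miR-30e-3p with both drugs was at 0.397-fold of DMSO (log2 fold change -1.33, SE 0.18, limma adjusted p = 0.00905). However, the totals of the combination arrays held only 1 of the 2 probes of miR-30e-3p, whereas those of the other 6 arrays held both. By the totals the call was lost without DMSO replicate 2 (log2 fold change -1.18, limma adjusted p = 0.0639) or combination replicate 2 (-1.34, adjusted p = 0.0551), with quantile normalization (-0.88, adjusted p = 0.143) and with normexp (-0.07, adjusted p = 0.235). It was also lost, at a log2 fold change of -1.33, with no filter (adjusted p = 0.0774) and by the methods' t-test with Benjamini-Hochberg adjustment (adjusted p = 0.161). The normexp value comes from spot signals with an offset of 50, not from the totals.

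With both probes summed on every array, miR-30e-3p was at 3.46 and 3.38 with both drugs and at the same values as before on the other arrays, so that both combination arrays lay below all others. The fold against DMSO was then 0.581 (log2 fold change -0.78, SE 0.18, limma adjusted p = 0.0328, with 17.5% of miRNAs called on this scale). This sum includes, on the combination arrays, a probe that the scanner did not count as detected, and 36.7% and 13.3% of the spots of miR-30e-3p were well above background there, against 63.3% and 56.7% in DMSO. The probes were not tested singly. The brighter probe, which was counted on all arrays, was at 4.02 ± 0.873 (SD, n = 2) in DMSO and 2.34 ± 0.0258 with both drugs, a log2 difference of -0.77. The dimmer probe was at 1.90 ± 0.00828 in DMSO and has only a bound with both drugs. Against gefitinib alone, miR-30e-3p was called by the scanner totals (log2 fold change -1.07, limma adjusted p = 0.0292) but not with both probes summed (-0.52, adjusted p = 0.278). The call by the totals was lost without any 1 of the 4 gefitinib and combination arrays, with limma adjusted p between 0.105 and 0.208. Against luteolin alone it was called by neither (-0.90, limma adjusted p = 0.0823, and -0.36, adjusted p = 0.368).

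The ratio of miR-30e-5p to miR-30e-3p does not change when an array is scaled by 1 factor. It was 10.0 and 8.94 in DMSO, 13.2 and 12.1 with luteolin, and 11.1 and 11.4 with gefitinib. With both drugs it was 22.6 and 21.0 by the scanner totals, and 15.1 and 14.7 with both probes summed. On either measure the combination arrays had the highest ratios of the 8 arrays, and the DMSO arrays the lowest. The arm difference was higher than in DMSO for the hairpins in general too, by a median over 35 hairpins of 0.20 (log2) with luteolin, 0.25 with gefitinib and 0.26 with both drugs, by the totals, and the gefitinib value of miR-30e was itself that median. Over the 35 hairpins with both arms detected on all arrays, the change of the log2 arm difference between both drugs and DMSO was 1.20 for miR-30e by the totals (SE 0.16, limma adjusted p = 0.00281), where 20% of hairpins were called. With all probes summed it was 0.65 (SE 0.13, adjusted p = 0.0174), and 20% of hairpins were again called. Against luteolin (0.79, limma adjusted p = 0.0367, with 5.71% of hairpins called) and against gefitinib (0.96, adjusted p = 0.0141, with 14.3% called) the combination was called by the totals. The call against luteolin was lost without any 1 of the 8 arrays (0.72 to 0.85, limma adjusted p between 0.0820 and 0.129), and that against gefitinib without any 1 of the 4 gefitinib and combination arrays (0.91 to 1.01, adjusted p between 0.0785 and 0.134). With log2 of the signal plus 16, none of the 3 comparisons of the combination was called. With all probes summed it was called in neither comparison (0.24, limma adjusted p = 0.630, and 0.41, adjusted p = 0.115). The single drugs against DMSO were not called (0.42, limma adjusted p = 0.180, for luteolin and 0.25, adjusted p = 0.530, for gefitinib, with 5.71% and 2.86% of hairpins called).

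The change of the arm difference with both drugs, with all probes summed, had a limma adjusted p of 0.0640 without DMSO replicate 1, 0.0936 without DMSO replicate 2, 0.0539 without combination replicate 1 and 0.0649 without combination replicate 2, with log2 values between 0.57 and 0.74. The call on this measure therefore needed all 4 of these arrays, while the direction did not. In the same comparison miR-30e-5p was at 0.915-fold of DMSO and miR-30e-3p, with both probes summed, at 0.581-fold. The latter value includes the dimmer probe, which the scanner did not count on the combination arrays, and so is not exact.

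**Figure D5:**
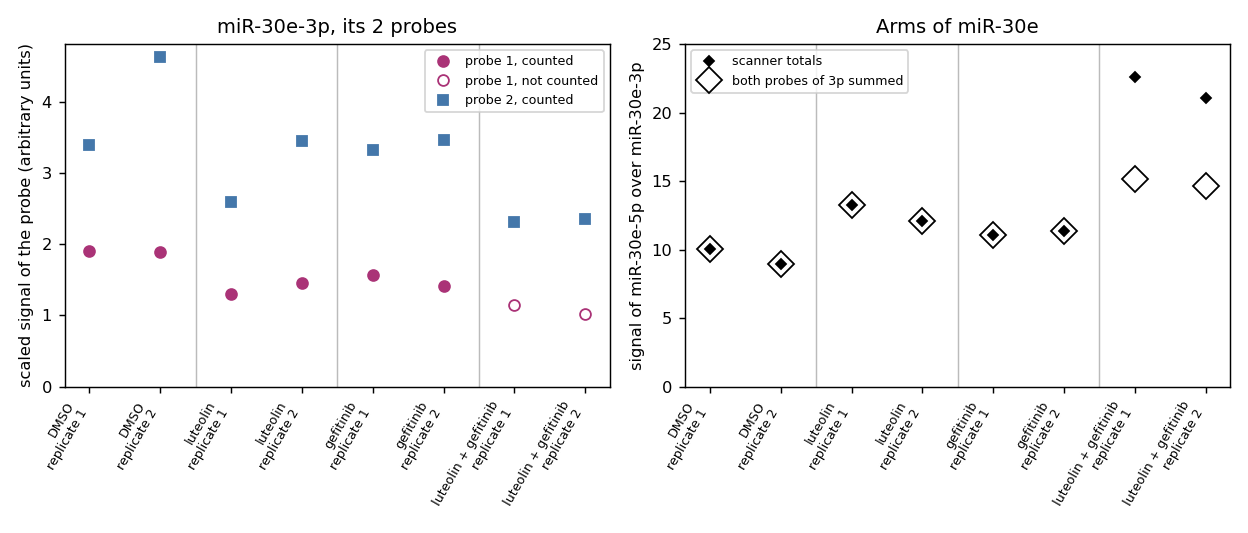
Left, scaled signal (arbitrary units) of the 2 probes of miR-30e-3p on the 8 arrays, filled where the scanner total counts the probe and open where it does not. Right, the ratio of miR-30e-5p to miR-30e-3p by the scanner totals (small filled diamonds) and with both 3p probes summed (large open diamonds), which part only on the luteolin plus gefitinib arrays, at 22.6 and 21.0 against 15.1 and 14.7.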

How the data were processed

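The authors hybridised Cy3-labelled total RNA to 1-colour Agilent miRNA arrays and extracted each array with Agilent Feature Extraction (version 10.7.3.1 per the file headers) at default settings. The deposited values are background-subtracted linear signal intensity, not normalized between arrays, and an undetected total is set to 0.1. Here the total signal per miRNA was scaled to the 75th percentile of each array over 365 miRNAs detected on all 8 arrays, raised to a floor of 0.609 and taken to log2. The test covered 480 miRNAs, those that both arrays of 1 or more groups detected, in 1 model of the 4 groups. It used lmFit and eBayes of limma (version 3.58.1, under R 4.3.3), with 4 residual degrees of freedom. P-values were two-sided and adjusted by the Benjamini-Hochberg method over all 480, or over 35 hairpins for arm differences. The fit was tested on simulated data. Descriptions and figures were made in Python 3.11.15.

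The members, the lists and the tests were chosen with earlier results of these data known. The named miRNAs were the 5 members, the other arms of their hairpins, and the 5 miRNAs most like the mean of the members. Beside these, 2 undetected markers and the other detected markers of prostate carcinoma epithelium were named. The nearest miRNAs of single members (let-7g-5p, miR-26b-5p and miR-1268a) were named after their values were seen. The summing of all probes was chosen after seeing the data. The number of arrays limits the precision, and the p-values measure only the spread between these samples. The series table, which repeats the spot intensity, served as an alternative, beside other scalings, filters, floors and tests, the replicate number as a block, and each array left out. RefSeq gave sequences and their coordinates in GRCh38.p14, which is not the build of the array design.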

Additional observations from a re-analysis of the deposited data

How the results depend on the processing

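The number of members called was 0 in all 6 comparisons under every alternative run, 147 counts in all, and the lowest limma adjusted p of a member against DMSO was 0.0601. Of 375 alternative log2 fold changes of members against DMSO, 44 had the other sign, and the largest size was 0.60. Scaling to the 75th percentile over all miRNAs was not run, since that percentile was at the value of undetected miRNAs. The number and signal of the arrays limit the result. The correlation of same-numbered deviations was 0.91 for DMSO with luteolin, 0.46 for luteolin and 0.41 for DMSO with the combination, but 0.07 for gefitinib with the combination, -0.09 with luteolin and -0.13 with DMSO. Since not every pair was above 0.1, the numbers were not taken to pair the samples, although those of the groups without gefitinib alone moved together. With the replicate block 0 members were called. The block changed no call of the members, of the other arms or of the arm difference.

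Changes with the other sign were as follows, in log2. For luteolin, miR-30a-5p was 0.11 with no scaling, 0.012 with quantile normalization, 0.060 with small-RNA control probes and 0.16 with spike-in probes, and miR-30e-5p was 0.14, 0.051, 0.095 and 0.20, and 0.055 with normexp. For gefitinib, miR-30a-5p was 0.21 with no scaling, 0.14 with small-RNA control probes and 0.31 with spike-in probes, miR-30d-5p was 0.25, 0.18 and 0.34, and 0.0066 with quantile normalization, miR-30e-5p was 0.35, 0.27 and 0.44, and miR-30c-5p was -0.0066 with the mean processed signal and -0.0062 with the series table. For both drugs, miR-30b-5p was 0.028 with no scaling, 0.20 with small-RNA control probes and 0.23 with spike-in probes, miR-30a-5p was 0.0083 and 0.038 and miR-30e-5p 0.071 and 0.10 with the same probes, and miR-30c-5p was -0.065 with the mean processed signal, -0.066 with the series table and -0.026 with normexp. These are changes of scale and of spot summary, and the cause was not tested further. The interaction of the miR-30e arm difference was -0.0089 with all probes summed.

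With 1 array left out at a time, the luteolin changes ran from -0.097 to 0.0090 for miR-30a-5p, -0.25 to 0.41 for miR-30b-5p, -0.15 to 0.37 for miR-30c-5p and -0.11 to 0.092 for miR-30e-5p. The gefitinib changes ran from -0.16 to 0.44 for miR-30b-5p, -0.12 to 0.31 for miR-30c-5p and -0.090 to 0.047 for miR-30e-5p, and those with both drugs from -0.30 to 0.30 for miR-30b-5p and -0.15 to 0.28 for miR-30c-5p. The low ends of miR-30b-5p and miR-30c-5p came without luteolin replicate 2 in the luteolin comparison and without DMSO replicate 1 in the other two. Changes not listed kept their sign with 1 array left out, but not their size. Over all alternatives, scalings included, the change with both drugs ran from 0.043 to 0.39 for miR-30d-5p and from -0.21 to 0.10 for miR-30e-5p.

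The log2 ratio of the family sum to that of DMSO was 0.40 for gefitinib with no scaling. With the mean processed signal this ratio turned to -0.045 for gefitinib and -0.088 for both drugs. With normexp at an offset of 50 and quantile normalization, the mean share of the family sum in DMSO was 10.2% in place of 5.22% for miR-30a-5p, 36.0% in place of 46.4% for miR-30b-5p, 12.1% in place of 8.63% for miR-30c-5p and 15.5% in place of 13.0% for miR-30e-5p. Of the other arms, 1 was called with gefitinib at a floor of 1. Some counts that follow include miR-30b-3p and miR-30d-3p, which were tested only because both DMSO arrays detected them. Their calls as lower were thus favoured by the filter, and nothing is concluded from them. With both drugs against DMSO, 0 were called with quantile normalization, normexp or no filter, 2 with a floor of 1, only the groups compared or the methods' t-test with its fold threshold, 1, miR-30b-3p in place of miR-30e-3p, by that test after Benjamini-Hochberg adjustment, and 3 with the mean processed signal, the series table or all probes summed, and 0 to 2 with 1 array left out. The share of all miRNAs called lower moved too, from 6.04% to 3.12%, 4.79% and 0.53% with quantile normalization, normexp and no filter, 6.67%, 4.38% and 6.04% with the floor, the groups compared and the t-test with fold, 2.13% by that test after adjustment, 10.6% in each setting with 3 arms, and 2.29% to 7.92% with 1 array left out. Against gefitinib the count fell to 0 with these normalizations, spot summaries, all probes summed, no filter, log2 of the signal plus 16 or the gefitinib arrays as 1 sample, and was 0 to 1 with 1 array left out. The arm difference of miR-30e was called 0 times against DMSO with log2 of the signal plus 16, and 0 times against either drug alone with that setting, the mean processed signal or all probes summed. With 1 array left out, the count was 0 against luteolin, and 0 to 1 against gefitinib.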
